A study of Mus musculus with 18 samples.

Results

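The respiratory chain is built from the transcripts of both the cell nucleus and the mitochondrial genome, and 96 of the 49671 gene models in the files belong to it. They were chosen by symbol alone, as protein-coding genes for subunits of complexes I to V (Nduf, Sdh, Uqcr, Cox and Atp5 genes of the nucleus, and the mt-Nd, mt-Co, mt-Cytb and mt-Atp genes of the mitochondrion), without Uqcrc1, and 10 pseudogenes with matching symbols were left out. Of the 96, 83 are nuclear (35 for complex I, 4 for complex II, 7 for complex III, 20 for complex IV and 17 for complex V) and 13 are mitochondrial (7 for complex I, 1 for complex III, 3 for complex IV and 2 for complex V). After the filter on low counts 77 nuclear and 7 mitochondrial members entered the test, and the other 12 are described by their counts. The cells were CD8+ or CD4+ T lymphocytes, sorted from tumors of the mouse melanoma line B16f10-OVA after 12 days of growth under the skin of B6 mice. All mice carried a floxed miR-155 gene (miR-155 is a microRNA made by activated T cells). For each cell type there were 3 libraries from mice with Cre under the CD4 promoter, which also acts in the precursors of CD8 cells, whose checkpoints had been blocked by antibodies (to CTLA-4 and to PD-1/PD-L1) injected on days 3, 6 and 9 ("treated" below), 3 from Cre-carrying mice without antibodies ("deficient") and 3 from mice without Cre or antibodies ("floxed"). The antibodies were tested in Cre-carrying mice only, so a blockade effect here is one in deficient cells, and each library pools the cells of 2 to 3 tumors.

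Complexes I to IV pass electrons from NADH and succinate to oxygen and most of them pump protons out of the mitochondrial matrix, and complex V, the ATP synthase, lets the protons back to make ATP. The core of complexes I, III, IV and V is partly encoded in the mitochondrial genome, which is transcribed from both strands as long precursors that are then cut into single messages, while complex II comes from nuclear genes only. T cells enlarge their mitochondria when activated, and memory and effector T cells are known to differ in how far they rely on respiration.

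Libraries held 3198435 to 11645432 counts. Every Cre-carrying library was low in Mir155hg, the gene that hosts miR-155, which stood at 0.344, 0.413 and 0.523 CPM in treated, 0.235, 0.892 and 1.90 CPM in deficient and 20.5, 19.2 and 9.06 CPM in floxed CD8 libraries, where CPM is the count scaled to a library size corrected by edgeR's TMM factors. In CD4 libraries Mir155hg stood at 0.0871, 0 and 0.191 CPM in treated, 0.648, 0 and 0.565 CPM in deficient and 4.87, 8.22 and 6.71 CPM in floxed cells. Cd8a stood at 623 to 1446 CPM in CD8 libraries, and Cd4 at 0 to 3.13 CPM in CD8 and 233 to 1089 CPM in CD4 libraries. Cd8a was also counted in floxed CD4 libraries, as given below. The 12 T cell markers summed to 3076 to 6327 CPM in every library. In floxed CD4 libraries macrophage and monocyte markers summed to more, 15414 to 31239.7 CPM. The floxed CD8 replicate 1 stood apart in this gene set: its nuclear members summed to 7268 CPM, against 9446 and 9705 CPM in the other floxed CD8 libraries, and 4.68% of its counts lay on ribosomal gene models. RNAs retained in the nucleus, such as Malat1 and Neat1, summed to 6393, 3129 and 4312 CPM in the floxed CD8 libraries, with replicate 1 the highest of all CD8 libraries. Ribosomal gene models took 25.3% of the counts of treated CD8 replicate 2 and 11.2% of those of deficient CD4 replicate 3. For many results that rest on these libraries the calls are also given without them. For blockade in CD8 cells, and for its difference from CD4 cells, the median and the number of members above 0 are not. Since RNA was measured in bulk, fewer cells of a type and less RNA per cell cannot be told apart.

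The mitochondrial genome was read at only part of its protein genes. Counted were mt-Nd1, mt-Nd2, mt-Nd4, mt-Nd5 and mt-Nd6 (core subunits of complex I), mt-Cytb (cytochrome b of complex III) and mt-Co1 (the catalytic subunit of complex IV). The other 6 lie side by side on the circle: mt-Co2 and mt-Co3 of complex IV, mt-Atp8 and mt-Atp6 of complex V, and mt-Nd3 and mt-Nd4l of complex I had 0 counts in all 18 libraries. Reads that match more than one place were not counted, as far as the command in the file headers shows, since it holds no option to count them. A row of annotated pseudogenes on the minus strand of chromosome 1 (chr1:24611535-24616197, GRCm38) copies this stretch, a nuclear copy of mitochondrial DNA. There Gm28661 matched mt-Co2 at 681 of 681 bases, Gm10925 matched mt-Atp6 at 678 of 678 and Gm28437 matched mt-Co3 at 783 of 783, and Gm28438 differed from mt-Nd3 at 1 of 345. The 6 pseudogenes of the row themselves had between 0 and 11 counts over all libraries.

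The pairs below show the first 60 aligned bases of a gene at 0 counts, and of mt-Co1, the most abundant member, which shares its end with a copy. Sequences are those of the GENCODE transcripts on GRCm38, written 5′ to 3′ in the sense of the gene, and capitals mark bases that differ between the 2 of a pair.
mt-Nd3, mitochondrial bases 9459 to 9518, plus strand: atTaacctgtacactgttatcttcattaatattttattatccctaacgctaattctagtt
Gm28438, chr1:24613060-24613119, minus strand: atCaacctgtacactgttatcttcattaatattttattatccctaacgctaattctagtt
mt-Co3, mitochondrial bases 8607 to 8666, plus strand: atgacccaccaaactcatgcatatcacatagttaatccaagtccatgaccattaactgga
Gm28437, chr1:24613912-24613971, minus strand: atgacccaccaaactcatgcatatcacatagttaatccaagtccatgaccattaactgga
mt-Co1, mitochondrial bases 6381 to 6440, plus strand: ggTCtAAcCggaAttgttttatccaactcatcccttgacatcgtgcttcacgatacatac
Gm29216, chr1:24616138-24616197, minus strand: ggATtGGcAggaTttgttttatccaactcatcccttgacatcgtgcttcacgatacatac
The first pair differs at T3C, counted from the first base of mt-Nd3 with the mitochondrial base first. The mt-Co3 pair has no difference. The mt-Co1 pair differs at T1056A, C1057T, A1059G, A1060G, C1062A and A1066T, counted from the first base of mt-Co1, and the remaining bases up to 1545 are the same in both.

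The genes at 0 counts shared nearly all of their sequence and the counted genes less, with 1 exception. Among the counted genes the counts did not follow the share. There mt-Co1 had the most counts per kb (264620) and mt-Nd6, with no shared window, the fewest (3077). Of all 50-base windows of a gene, the share also present in another annotated gene was 100% for mt-Co2, 99.9% for mt-Co3, 99.5% for mt-Atp6, 98.8% for mt-Nd4l (whose copy is Gm10222) and 98.0% for mt-Nd3, all at 0 counts. It was 62.2% for mt-Nd4, 51.1% for mt-Co1, 8.19% for mt-Nd2 and 7.61% for mt-Nd5, and 0 for mt-Nd1, mt-Nd6 and mt-Cytb, all counted. The exception was mt-Atp8, with no shared window and 0 counts. It lies between mt-Co2 and mt-Atp6, and the bases between their copies on chromosome 1 belong to no annotated gene and were not read here, nor were the reads themselves. The windows are a stand-in for read length, which is not given in the sources used here. Outside the copied stretch on chromosome 1 lie 502 of 1378 bases of mt-Nd4 and 1053 of 1545 of mt-Co1, while the levels per kb below divide by the whole length. What the copies did to the counts was not tested. Of the 83 nuclear members 34 shared no window with another gene and 0 shared most of theirs, with a median of 1.25%, and 19 shared over 10%, led by Atp5o (41.6%), Atp5g2 (38.3%), Ndufb6 (31.6%) and Ndufa13 (28.5%).

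**Figure D1:**
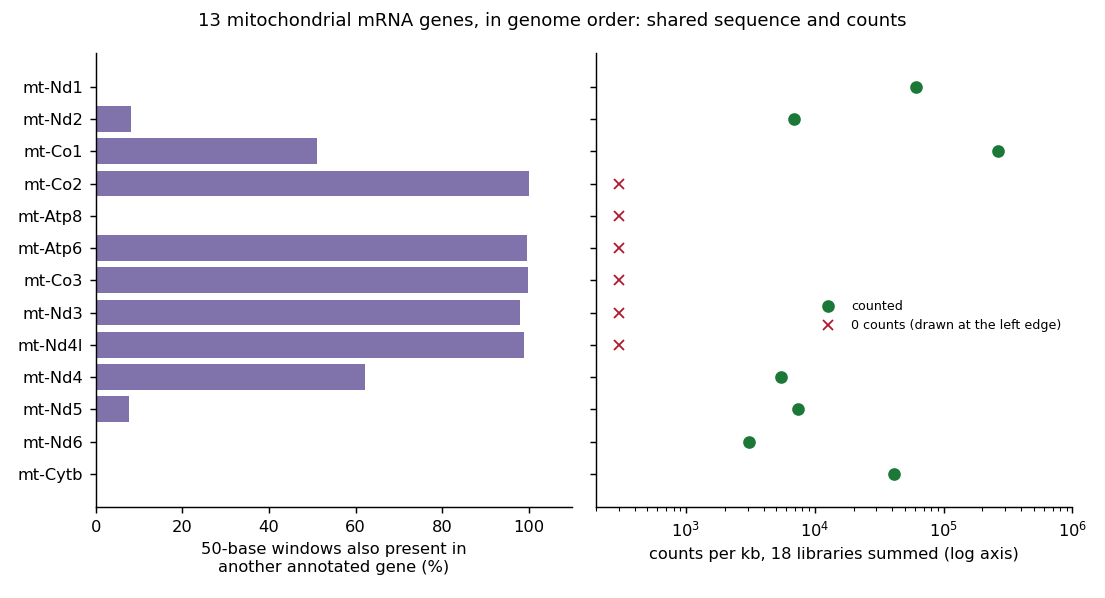
The 13 mitochondrial mRNA genes in genome order, with the share of their 50-base windows that another annotated gene also holds (left, percent) and their counts per kb summed over 18 libraries (right, log axis; crosses mark 0 counts). The genes at 0 form 1 block, and all of them but mt-Atp8 share at least 98.0% of their windows, against at most 62.2% in the counted genes.

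Per kb of annotated exon, mt-Co1 had the highest mean level of all members over the 18 libraries, 2050.3 CPM per kb, followed by mt-Nd1 at 475 and mt-Cytb at 321. The lowest counted mitochondrial message was mt-Nd6, the one protein gene on the opposite strand, at 23 CPM per kb. Among nuclear members the highest levels per kb belonged to Atp5a1 (300.3), Cox6b1 (269), Atp5mpl (266) and Atp5b (264), of which Atp5a1 and Atp5b encode the alpha and beta subunits of the ATP synthase head. Of the core subunits of complex I, Ndufs3 stood at 16.9, Ndufv1 at 39.2 and Ndufs8 at 72.6 CPM per kb. In complex II, the iron-sulfur subunit Sdhb stood at 78.6, the flavoprotein Sdha at 46.6 and the membrane anchors Sdhc and Sdhd at 25.5 and 115 CPM per kb. These lengths cover all annotated exons of a gene, so a gene with long rarely used exons reads lower.

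Tumor T cells carried the widely used isoforms of complex IV and nearly none of those known from muscle, testis or hypoxic tissue. Cox4i1 averaged 223 CPM per kb over all libraries, against 0.142 for Cox4i2, the form of hypoxic lung, which had 12 counts in all. Cox6a1 stood at 168 and its heart and skeletal muscle form Cox6a2 at 1.37. Cox7a2 stood at 157 and the muscle form Cox7a1 at 2.02 CPM per kb. Cox6b2, a testis form, had 48 counts, Cox8b 2, Cox8c 4 and Cox7b2 0 over the 18 libraries, beside 24470 for Cox6b1, 15434 for Cox8a and 19029 for Cox7b. Ndufa4l2, a hypoxia-induced relative of Ndufa4, had 10 counts, against 15318 for Ndufa4. Of the genes for the c-ring of the ATP synthase, Atp5g3 held 79.6 CPM per kb, Atp5g1 1.21 and Atp5g2 0.742, with the shared sequence of Atp5g2 as given above and 11.1% of windows shared in Atp5g1.

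Loss of miR-155 in CD8 cells came with higher levels of 3 mitochondrially encoded messages, mt-Co1, mt-Nd1 and mt-Nd6. Nuclear members were called less often than all tested genes (6.49% against 19.3% in either direction). By edgeR's test 10.4% of nuclear members had an unadjusted p under 0.05, beside 31.9% of all tested genes. Of the 7 counted mitochondrial members 3 rose and 0 fell, beside 9.65% of all 14080 tested genes that rose and 9.61% that fell, and of the 77 nuclear members 3 rose and 2 fell. The median log2 fold change was 0.25 over the mitochondrial and -0.03 over the nuclear members, beside -0.01 over all genes tested. Summed, the counted mitochondrial messages stood at 5144, 4711 and 5595 CPM in deficient CD8 libraries and 3348, 3468 and 4101 CPM in floxed ones. The nuclear members summed to 8642, 8714 and 8265 CPM in deficient and 7268, 9446 and 9705 CPM in floxed CD8 libraries. The ratio of the mitochondrial to the nuclear sum was 0.595, 0.541 and 0.677 in deficient and 0.461, 0.367 and 0.423 in floxed CD8 libraries, so the groups did not overlap, and no test was run on these sums.

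**Figure D2:**
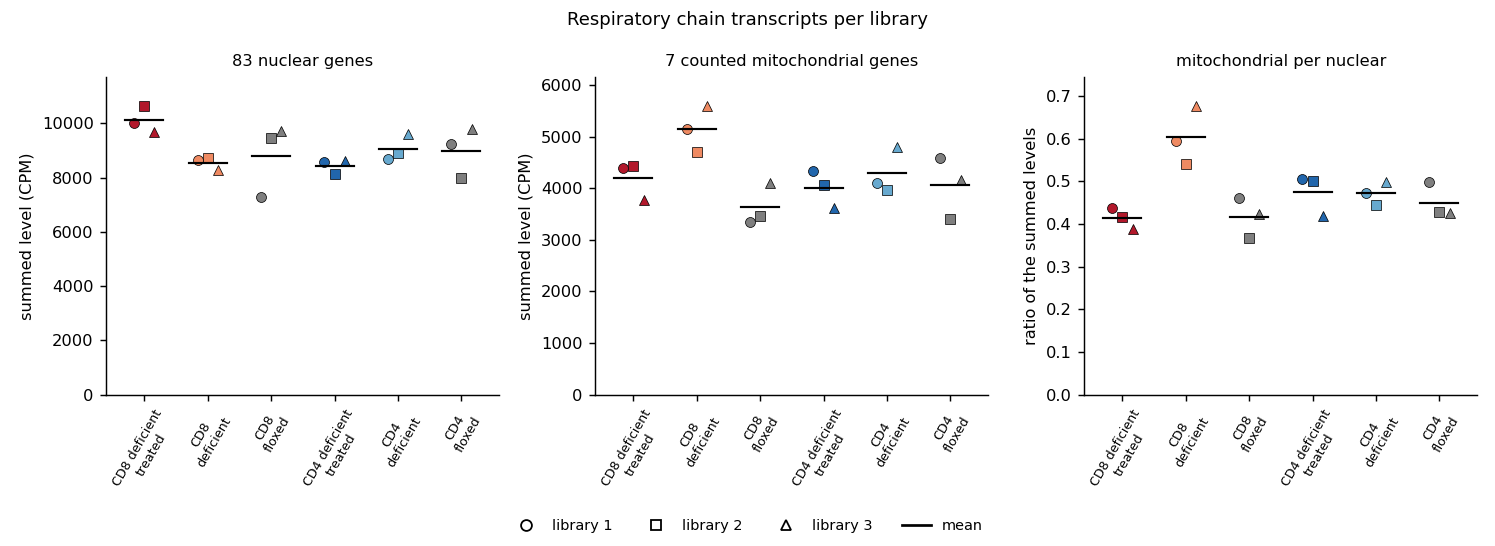
Summed level of the 83 nuclear members (left, CPM), of the 7 counted mitochondrial members (middle, CPM) and their ratio (right) in each of 18 libraries, with bars at the group means. The 3 deficient CD8 libraries have ratios of 0.541 to 0.677, above the 0.367 to 0.505 of the other 15 libraries.

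The mitochondrial messages did not move as 1 block. Levels of mt-Co1 were 3802, 3683 and 3795 CPM in deficient and 1851, 2719.8 and 2768 CPM in floxed CD8 libraries (log2 fold change 0.62 ± 0.14, SE; edgeR quasi-likelihood, Benjamini-Hochberg adjusted p = 0.00429). The 3 deficient libraries lay within a narrow band above every floxed one. Those of mt-Nd1 were 594, 502 and 709 CPM in deficient and 387, 359.9 and 428 CPM in floxed CD8 libraries (0.62 ± 0.16, edgeR adjusted p = 0.00919), again without overlap. The message of the opposite strand, mt-Nd6, stood at 15.8, 11.3 and 13.5 CPM in deficient and 1.71, 5.96 and 1.78 CPM in floxed CD8 libraries (2.03 ± 0.40, edgeR adjusted p = 0.00146). It overlaps the end of mt-Nd5 on the other strand, and counting used the strand, per the file headers. That rise rests on few reads, 134, 89 and 85 counts in deficient and 12, 61 and 10 in floxed CD8 libraries, and floxed CD8 cells were the low group among all 6. By contrast mt-Nd4 was at 62.7, 50.2 and 104 CPM in deficient and 197, 39 and 116 CPM in floxed CD8 libraries (-0.70 ± 0.43, edgeR adjusted p = 0.297), with the floxed values spread more widely than the groups differed. The neighbouring gene mt-Nd5 was alike, at 115, 93.2 and 193 CPM in deficient and 319, 75.8 and 176 CPM in floxed CD8 libraries (-0.51 ± 0.38, edgeR adjusted p = 0.404). Neither mt-Cytb (0.21 ± 0.30) nor mt-Nd2 (0.25 ± 0.39) passed the test.

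Within the floxed CD8 group the make-up of the mitochondrial messages varied. The share of mt-Co1 among them was 55.3, 78.4 and 67.5% in floxed CD8 libraries, against 67.8 to 81.1% in the other 15. In the same 3 libraries mt-Nd6 amounted to 0.535, 7.87 and 1.01% of mt-Nd5, against 6.98 to 26.3% in the other 15. The ribosomal RNAs of the mitochondrion, mt-Rnr1 and mt-Rnr2, summed to 11658, 7939.9 and 15984 CPM in deficient and 11754, 4595 and 10253 CPM in floxed CD8 libraries, and neither passed the test (-0.11 ± 0.50 for mt-Rnr1 and 0.53 ± 0.40 for mt-Rnr2). Floxed replicates 1 and 3 are high in mitochondrial ribosomal RNA, mt-Nd4 and mt-Nd5 and low in mt-Nd6, and replicate 2 stands apart from them.

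**Figure D3:**
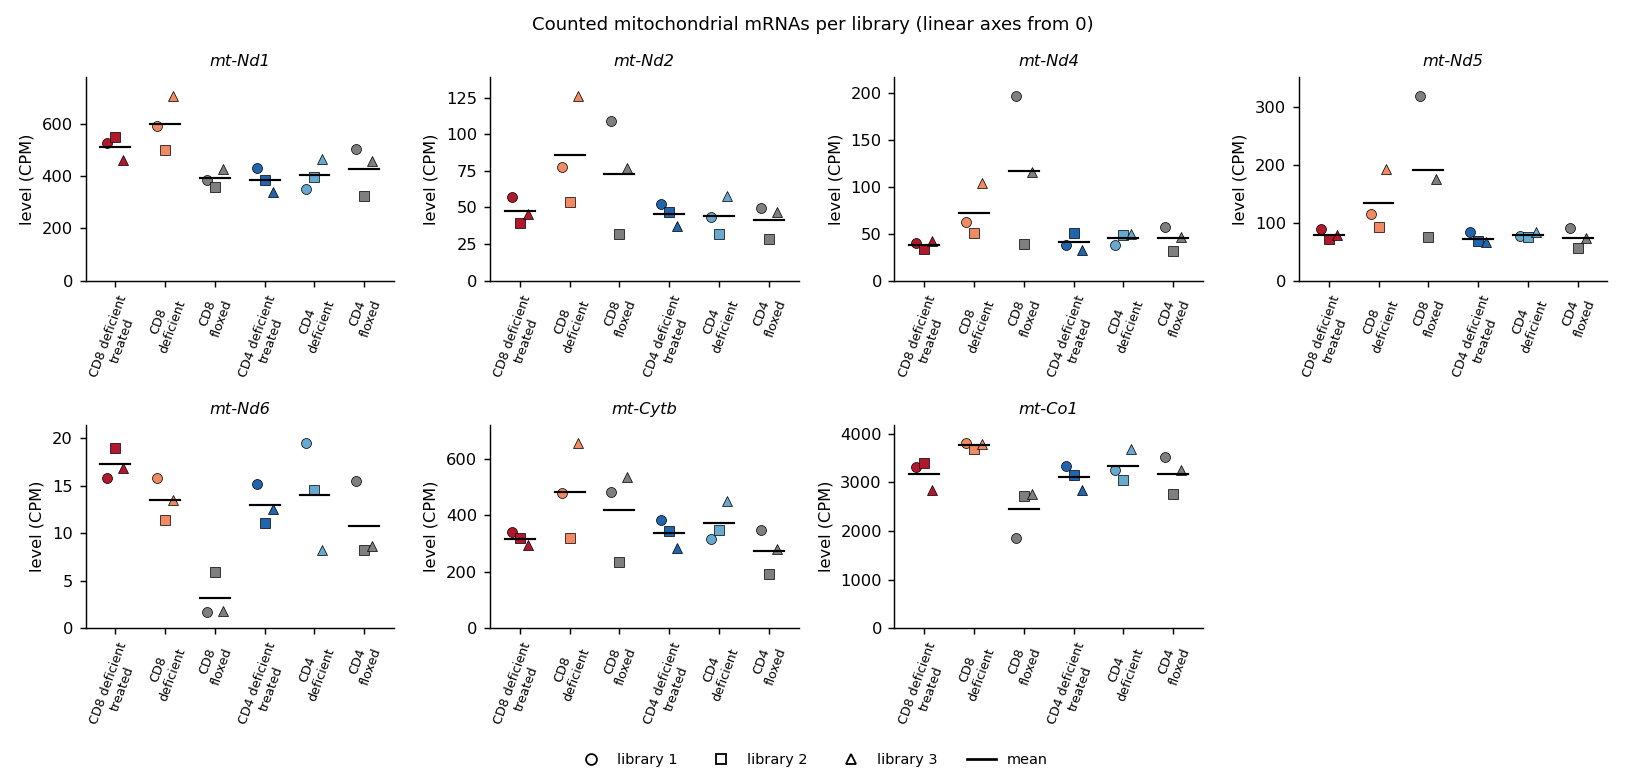
Level (CPM, linear axes from 0) of the 7 counted mitochondrial members in each of 18 libraries, with bars at the group means. In mt-Co1, mt-Nd1 and mt-Nd6 all deficient CD8 libraries lie above all floxed CD8 ones, while in mt-Nd4 and mt-Nd5 floxed CD8 replicates 1 and 3 lie above the other groups' means.

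Among called nuclear members the largest rise on deletion in CD8 cells was in Cox7a2l, at 155, 138 and 131 CPM in deficient and 86.5, 105 and 98.3 CPM in floxed libraries (0.55 ± 0.13, edgeR adjusted p = 0.00537). Ndufa6, an accessory subunit of complex I, was at 100.5, 92.9 and 92.8 CPM in deficient and 56.9, 74.1 and 78 CPM in floxed libraries (0.45 ± 0.15, edgeR adjusted p = 0.0356). Atp5mpl, a small membrane subunit of the ATP synthase, was at 99.3, 107 and 90.7 CPM in deficient and 61.2, 76 and 85.7 CPM in floxed libraries (0.42 ± 0.14, edgeR adjusted p = 0.0367). In both, every deficient library lay above every floxed one, in the same libraries that gave the calls. The lowest floxed value was that of replicate 1 in both. Cox5a, a subunit of complex IV, stood at 116, 121 and 105 CPM in deficient and 136, 162 and 155 CPM in floxed CD8 libraries and fell (log2 fold change -0.40 ± 0.12, edgeR adjusted p = 0.0271). Atp5j, coupling factor 6 of the ATP synthase stalk, was at 41.9, 43 and 51.6 CPM in deficient and 54.5, 59.7 and 68.4 CPM in floxed libraries and also fell (-0.42 ± 0.14, edgeR adjusted p = 0.0445). None of the 4 genes of complex II and none of the 7 core genes of complex I passed the test, their log2 fold changes running from -0.18 (Sdhb) to 0.23 (Ndufs3 and Ndufs7).

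RNA of other cells differed between the same groups. Melanoma markers summed to 1421 to 3235 CPM in deficient and 165 to 209 CPM in floxed CD8 libraries, with 13 of 15 risen. Macrophage and monocyte markers summed to 2274 to 4059.9 CPM in deficient and 1308 to 2859 CPM in floxed CD8 libraries (8 of 20 rose), and none of either list was at 0 in any group. Other lists were small: in deficient CD8 libraries B and plasma cell markers summed to 13.3 to 19.4 CPM, fibroblast and endothelial markers to 68.4 to 107 CPM and erythroid markers to 5.23 to 8.82 CPM. In floxed CD8 libraries the same sums were 5.69 to 9.00, 27.7 to 34 and 0 to 0.489 CPM, with Dcn, Pdgfra, Pdgfrb, Tek, Alas2 and Hbb-bt at 0 in the floxed group. T cell markers summed to 3994 to 4246 CPM in deficient and 4517 to 5799 CPM in floxed CD8 libraries (4 of 12 fell). With the melanoma and macrophage sums as covariates, 0 of the 77 nuclear and 0 of the 7 mitochondrial members were called. In that fit the log2 fold changes were 0.64 for mt-Co1, 0.72 for mt-Nd1 and 1.83 for mt-Nd6 (edgeR adjusted p = 0.311, 0.291 and 0.295). The melanoma sum did not overlap between these groups, so that fit has little power to call a deletion effect. It cannot tell deletion and melanoma RNA apart. Leaving out single libraries left 1 to 4 nuclear members called (1 without floxed replicate 2 or deficient replicate 1, 2 without deficient replicate 2, 3 without deficient replicate 3, 4 without floxed replicate 1 or 3) and 2 to 5 mitochondrial ones (2 without deficient replicate 3, where mt-Nd1 had 0.47 with an edgeR adjusted p of 0.0664, and 5 without floxed replicate 2, where 2 were lower).

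In CD4 cells no respiratory chain member was called on loss of miR-155, beside 11.7% of all tested genes called in either direction (649 of 14080 higher and 994 lower). By edgeR's test 4 of 77 nuclear members (5.19%) and 0 of 7 mitochondrial ones had an unadjusted p under 0.05, beside 24.2% of all tested genes, and limma voom called 1 nuclear member and DESeq2 2. The medians were 0.00 over nuclear and 0.08 over mitochondrial members, beside 0.01 over all tested genes. The sum of the mitochondrial messages was 4106, 3963 and 4795 CPM in deficient and 4588, 3412 and 4165 CPM in floxed CD4 libraries, and that of the nuclear members 8687, 8918 and 9595 CPM in deficient and 9221, 7980.1 and 9772 CPM in floxed ones, which overlapped in both. Levels of mt-Co1 were 3261, 3045 and 3679 CPM in deficient and 3523, 2768 and 3252 CPM in floxed CD4 libraries (0.07 ± 0.14). Melanoma markers were higher in the deficient CD4 libraries too (1897 to 4475 CPM, against 164 to 682 CPM in floxed; 10 of 15 rose), while macrophage markers were lower (5378 to 7514 CPM, against 15414 to 31239.7 CPM; 15 of 20 fell).

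The deletion effects of the cell types were compared directly as CD8 minus CD4. This difference was called for 1 mitochondrial member, mt-Nd1, at 0.70 ± 0.22 (edgeR adjusted p = 0.0465), and for 0 nuclear ones in either direction, beside 6.89% of all tested genes called higher and 11.6% called in either direction. For mt-Nd1 the effect was 0.62 in CD8 and -0.08 in CD4 cells. In the same difference 15 of 20 macrophage and monocyte markers were called higher and 3 of 12 T cell markers lower. A change in the cells of a sort and one within T cells cannot be told apart in these bulk values. The differences of mt-Nd6 (1.63 ± 0.55, edgeR adjusted p = 0.0614) and mt-Co1 (0.55 ± 0.20, 0.08) missed the threshold. Of the nuclear members 1 had an unadjusted p under 0.05 (1.30%, beside 24% of all tested genes), and limma voom and DESeq2 each called 0. For mt-Nd1 the call was lost in 11 of 21 alternatives (edgeR, limma voom or DESeq2 adjusted p from 0.00662 to 0.765, effect 0.31 to 0.89).

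With antibody blockade in deficient CD8 cells, 6 nuclear members were called higher and no mitochondrial member was called. Of the 77 nuclear members 65 had a log2 fold change above 0, beside 47.3% of all tested genes. The nuclear median was 0.24, beside -0.03 over all tested genes. All members were measured in the same libraries, so such counts are not independent observations. Called higher were 6 of 77 and called lower 0, beside 8.25% of all genes called higher and 5.53% called lower, so the share of calls was close to the background. Each complex leaned the same way, with 30 of 35 nuclear members of complex I above 0, 3 of 4 of complex II, 7 of 7 of complex III, 11 of 14 of complex IV and 14 of 17 of complex V. Nuclear members summed to 10022, 10636 and 9694 CPM in treated and 8642, 8714 and 8265 CPM in deficient CD8 libraries. RNAs retained in the nucleus went the other way without overlap, at 3263, 2695 and 3316 CPM in treated and 4116, 4226 and 5239 CPM in deficient CD8 libraries, and 2 of the 3 tested fell, Neat1 (-0.94 ± 0.24) and Kcnq1ot1 (-1.22 ± 0.36). Their part in the nuclear members' values was not tested. The mitochondrial messages summed to 4387, 4425 and 3776 CPM in treated and 5144, 4711 and 5595 CPM in deficient libraries, so the groups did not overlap in either sum of members. The ratio of the sums was 0.438, 0.416 and 0.390 in treated CD8 libraries, against 0.595, 0.541 and 0.677 in deficient ones. The blockade and deletion comparisons share the deficient CD8 libraries, so opposite values in the 2 are not independent.

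**Figure D4:**
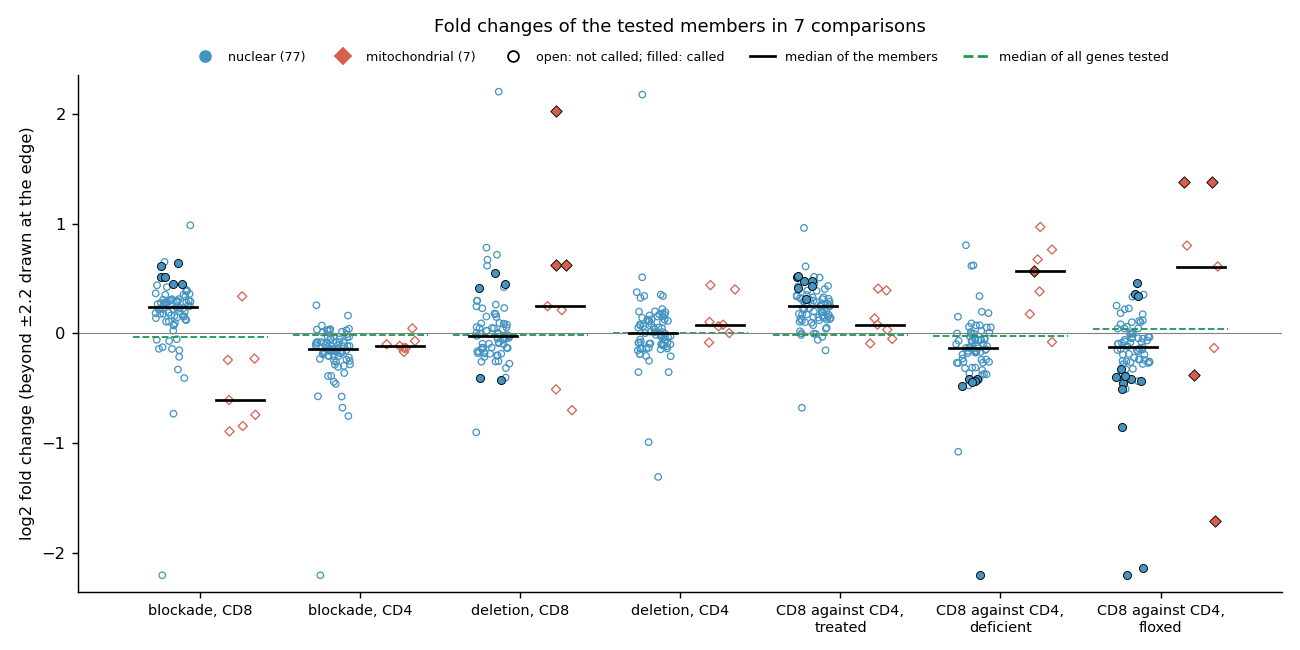
Log2 fold change of each tested nuclear (circles, 77) and mitochondrial (diamonds, 7) member in 7 comparisons, with filled symbols for called members, black bars at the members' medians and dashed lines at the median of all tested genes. The nuclear median lies above that of all genes for blockade in CD8 cells (0.24) and for treated CD8 against treated CD4 cells (0.25), and below it for blockade in CD4 cells (-0.14).

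Complex IV supplied 3 of the 6 called nuclear members. Cox5a stood at 171, 197 and 165 CPM in treated and 116, 121 and 105 CPM in deficient CD8 libraries (0.64 ± 0.13, edgeR adjusted p = 0.00173), with every treated library above every deficient one, and it was called in all 15 alternatives. Cox6b1, a subunit facing the space between the mitochondrial membranes, was at 208, 241 and 204 CPM in treated and 158, 162 and 159 CPM in deficient CD8 libraries (0.45 ± 0.13, edgeR adjusted p = 0.0281). For Cox7a2, the widely expressed form of subunit 7a, the levels were 186, 182 and 175 CPM in treated and 133, 142 and 121 CPM in deficient libraries (0.45 ± 0.15, edgeR adjusted p = 0.0447). None of these 3 overlapped between the groups, but the same libraries gave the calls, so this adds no support of its own. The deficient libraries were the more tightly grouped in Cox6b1.

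Complex I added a pair of accessory subunits. Ndufa13 was at 133, 159 and 149 CPM in treated and 107, 106 and 94.7 CPM in deficient CD8 libraries (0.52 ± 0.13, edgeR adjusted p = 0.0108), where 28.5% of its windows are shared, most with its neighbour Tssk6. Ndufb7 was at 91.2, 102 and 91.1 CPM in treated and 67.9, 64 and 66.4 CPM in deficient libraries (0.51 ± 0.14, edgeR adjusted p = 0.0205). From complex V came Atp5k, subunit e of the ATP synthase, which takes part in pairing the enzyme into dimers, at 104, 102 and 93.6 CPM in treated and 66.7, 61.6 and 67.3 CPM in deficient libraries (0.62 ± 0.16, edgeR adjusted p = 0.0126). All 3 were without overlap, again in the libraries that gave the calls. The 7 core genes of complex I ran from -0.14 (Ndufs3) to 0.31 (Ndufs8) and those of complex II from -0.07 (Sdha) to 0.31 (Sdhb), with none called.

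**Figure D5:**
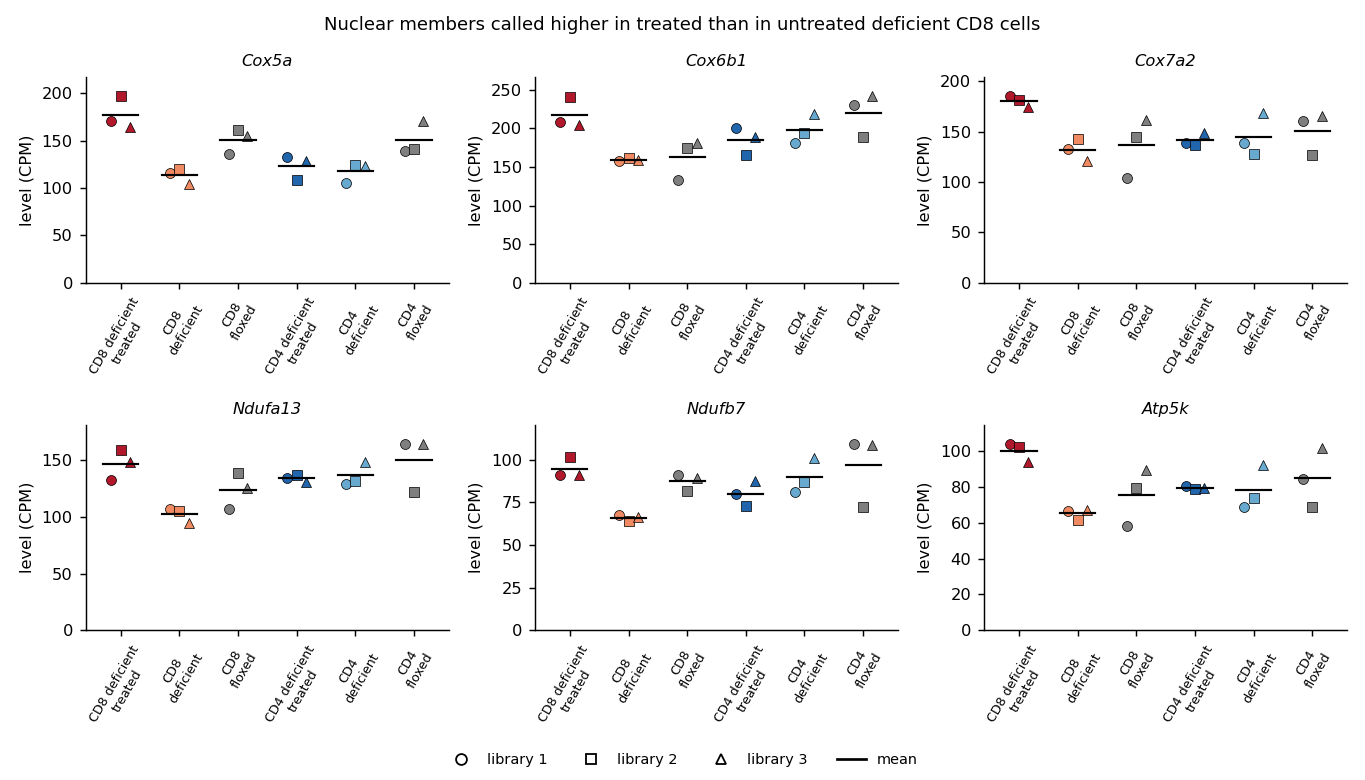
Level (CPM, axes from 0) of the 6 nuclear members called higher in treated than in deficient CD8 cells, in each of 18 libraries, with bars at the group means. Treated CD8 libraries, on which the members were called, lie above all deficient CD8 libraries in each panel. In CD4 cells the treated and deficient libraries overlap.

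The mitochondrial messages in treated CD8 cells had no member called (0 of 7, with 0 at an unadjusted p under 0.05 by edgeR, beside 27.5% of all tested genes, and 0 called by limma voom or DESeq2). Without the filter on low counts edgeR called 4 of the 7 lower. In the filtered fit 6 of 7 were below 0, with a median of -0.61. The levels of mt-Co1 were 3319, 3391 and 2837 CPM in treated and 3802, 3683 and 3795 CPM in deficient CD8 libraries (-0.24 ± 0.14), without overlap. Those of mt-Cytb were 340.5, 318 and 293 CPM in treated and 477, 318 and 654 CPM in deficient libraries (-0.61 ± 0.30), and mt-Nd2, mt-Nd4 and mt-Nd5 had -0.84, -0.89 and -0.74. Only mt-Nd6 was above 0, at 0.34. Of the mitochondrial ribosomal RNAs mt-Rnr2 fell (log2 fold change -1.33 ± 0.40, edgeR adjusted p = 0.043), with 3763, 3583 and 4783 CPM in treated and 10208, 6898 and 13397 CPM in deficient CD8 libraries.

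Melanoma markers stood at 372 to 1761 CPM in treated and 1421 to 3235 CPM in deficient CD8 libraries, overlapping and with 0 of 15 called. Macrophage markers stood at 2187 to 2463 CPM in treated and 2274 to 4059.9 CPM in deficient CD8 libraries (2 of 20 rose and 14 fell). T cell markers stood at 6089 to 6327 CPM in treated and 3994 to 4246 CPM in deficient CD8 libraries (4 of 12 rose). With the melanoma and macrophage sums as covariates 3 nuclear members were called and the nuclear median was 0.38. Leaving out single libraries left 2 to 5 called: 2 without deficient replicate 3 or without treated replicate 1 or 2, 3 without deficient replicate 2, 4 without deficient replicate 1 and 5 without treated replicate 3.

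Of the 65 nuclear members with a RefSeq window upstream, 27 held at least 1 of the motifs searched, and the windows of 3 members that rose in treated CD8 cells are shown because they hold such motifs. Each is the RefSeq window on GRCm38.p6 from 250 bases before to 50 bases after a gene start, in the sense of the gene, with the motif matches in capitals.
Atp5k, chr5:108434350-108434649, minus strand: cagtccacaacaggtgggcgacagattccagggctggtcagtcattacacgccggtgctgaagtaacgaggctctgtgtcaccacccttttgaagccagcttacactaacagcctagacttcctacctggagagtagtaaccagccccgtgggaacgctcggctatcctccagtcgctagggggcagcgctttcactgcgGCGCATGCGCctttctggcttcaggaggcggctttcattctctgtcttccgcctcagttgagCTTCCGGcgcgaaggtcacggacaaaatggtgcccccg
Cox6b1, chr7:30626065-30626364, minus strand: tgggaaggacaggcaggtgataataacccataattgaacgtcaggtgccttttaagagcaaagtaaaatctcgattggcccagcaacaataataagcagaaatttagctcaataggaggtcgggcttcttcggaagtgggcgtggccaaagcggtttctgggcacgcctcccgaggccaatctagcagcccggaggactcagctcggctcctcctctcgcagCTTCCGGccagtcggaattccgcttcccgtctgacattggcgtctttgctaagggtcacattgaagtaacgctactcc
Ndufb7, chr8:83566508-83566807, plus strand: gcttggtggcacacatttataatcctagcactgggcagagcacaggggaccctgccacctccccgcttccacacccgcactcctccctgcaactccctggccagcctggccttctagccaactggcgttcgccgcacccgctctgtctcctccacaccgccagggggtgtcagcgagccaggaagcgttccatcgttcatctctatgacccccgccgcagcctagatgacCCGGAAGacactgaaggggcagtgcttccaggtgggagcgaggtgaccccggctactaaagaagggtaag
Searched on both strands were GCGCATGCG, the core bound by NRF1, CCGGAAG, bound by factors of the ETS family, and AAGATGGC, bound by YY1. The NRF1 core read on both strands overlaps itself and makes the longer capital run in Atp5k, and the second capital run there, like that of Cox6b1, is the ETS motif on the other strand. The 65 are of 83 nuclear members. The NRF1 core stood in the windows of 7 of 65 members (10.8%), against 1.95% of 27025 genes, the ETS motif in 16 (24.6%, against 9.93%) and the YY1 motif in 9 (13.8%, against 3.19%). A longer NRF1 form with a C added at the end stood in 4 (6.15%, against 1.07%). Members called higher in treated CD8 cells without a match in these windows were Cox5a, Cox7a2 and Ndufa13. A match describes letters in a window and says nothing of binding in these cells.

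In CD4 cells blockade called no respiratory chain member, beside 0.142% of all tested genes called in either direction. Of the nuclear members 12 of 77 were above 0, beside 48.3% of all tested genes. Their median was -0.14, beside -0.01 over all tested genes. RNAs retained in the nucleus summed to 4779.6, 5063 and 5136 CPM in treated and 4391, 4362 and 3931 CPM in deficient CD4 libraries, without overlap and with 0 of 3 called, and their part in these values was not tested. By edgeR's test 4 nuclear members (5.19%) and 0 mitochondrial ones had an unadjusted p under 0.05, beside 11.3% of all tested genes, and limma voom called 0 and DESeq2 1. Nuclear members summed to 8587, 8114 and 8601 CPM in treated and 8687, 8918 and 9595 CPM in deficient CD4 libraries, and the mitochondrial messages to 4338, 4066 and 3610.4 CPM in treated and 4106, 3963 and 4795 CPM in deficient ones. Cox5a stood at 133, 108 and 129 CPM in treated and 106, 124 and 124 CPM in deficient CD4 libraries (0.07 ± 0.13). Without the 3 libraries with the most ribosomal counts, 1 of them a deficient CD4 one, the nuclear median was -0.08. Melanoma markers summed to 461 to 2060.3 CPM in treated and 1897 to 4475 CPM in deficient CD4 libraries, and macrophage markers to 5226 to 7382 CPM in treated and 5378 to 7514 CPM in deficient ones, with no marker called.

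Set against each other, the blockade effects of CD8 and CD4 cells had no member whose difference passed the test. As CD8 minus CD4, 74 of 77 nuclear members were above 0, beside 50.2% of all tested genes. The nuclear median was 0.37, beside 0.00 over all tested genes. Of the nuclear members 0 were called, beside 0.803% of all tested genes called in either direction. Of the nuclear members 19 (24.7%) had an unadjusted p under 0.05 by edgeR, beside 12.2% of all tested genes, and limma voom and DESeq2 each called 0. Above 0 were 35 of 35 members of complex I, 4 of 4 of complex II and 7 of 7 of complex III. So were 13 of 14 of complex IV and 15 of 17 of complex V. All were measured in the same libraries, so the complexes do not repeat the result independently. For Cox5a the difference was 0.56 ± 0.18 (edgeR adjusted p = 0.158), and for Atp5k 0.58 ± 0.22 (0.271). Of the mitochondrial members 1 of 7 was above 0 (median -0.47), with 0 called, 0 at an unadjusted p under 0.05 and 0 called by limma voom or DESeq2.

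Between the cell types, treated CD8 cells held higher levels of 7 nuclear members than treated CD4 cells, a share of 9.09% that is close to that of all tested genes. Of 77 nuclear members 7 were called higher and 0 lower, beside 9.36% of all genes called higher and 11% called lower. Of the 77, 70 were above 0, beside 49.3% of all tested genes, and the median was 0.25, beside -0.01. Of the 7, 4 encode parts of the ATP synthase: Atp5b, Atp5a1, Atp5g3 and Atp5h (a stalk subunit). Atp5b stood at 1389.8, 1393 and 1256 CPM in treated CD8 and 985, 985 and 936 CPM in treated CD4 libraries (0.48 ± 0.11, edgeR adjusted p = 0.00448), without overlap, and was called in all 15 alternatives. Atp5a1, its partner in the catalytic head, had 0.31 ± 0.11 (edgeR adjusted p = 0.0487), Atp5g3 0.41 ± 0.13 (0.024) and Atp5h 0.43 ± 0.14 (0.034). All 17 nuclear members of complex V were above 0.

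The other 3 members called between treated CD8 and treated CD4 cells came from complexes IV, I and III. Cox5a stood at 171, 197 and 165 CPM in treated CD8 and 133, 108 and 129 CPM in treated CD4 libraries (0.52 ± 0.13, edgeR adjusted p = 0.00525). Ndufs1, the largest core subunit of the complex I electron path, stood at 162, 192 and 152 CPM in treated CD8 and 134, 95 and 131 CPM in treated CD4 libraries (0.48 ± 0.14, edgeR adjusted p = 0.0176). Uqcrq, a small subunit of complex III, stood at 74.2, 83.9 and 76.7 CPM in treated CD8 and 47, 51.7 and 63.5 CPM in treated CD4 libraries (0.53 ± 0.16, edgeR adjusted p = 0.0207). Of the mitochondrial members 0 were called (1 at an unadjusted p under 0.05, beside 31.5% of all tested genes, 0 by limma voom or DESeq2), and mt-Nd1 had 0.41 ± 0.16 (edgeR adjusted p = 0.0768). Same-numbered libraries deviated together in this comparison and in that of deficient cells, and with the number as a block 8 nuclear members were called here. Without treated CD8 replicate 2 or treated CD4 replicate 2 the nuclear calls fell to 2, and without treated CD8 replicate 1 to 3. Macrophage markers summed to 2187 to 2463 CPM in treated CD8 and 5226 to 7382 CPM in treated CD4 libraries (17 of 20 lower and 1 higher in CD8). These sums did not overlap, so cell type and macrophage RNA cannot be told apart in this comparison.

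In deficient cells the nuclear members that were called were lower in CD8 than in CD4 cells. Between deficient CD8 and deficient CD4 cells 0 of 77 were called higher and 6 lower, beside 6.21% of all genes called higher and 9.39% called lower, and the median was -0.13, beside -0.02. They were 4 accessory subunits of complex I, namely Ndufb9 (-0.48 ± 0.12), Ndufa13 (-0.41 ± 0.13), Ndufb7 (-0.44 ± 0.14) and Ndufa3 (-0.43 ± 0.14), with Sdhb (-0.42 ± 0.12) and Cox6a2. Sdhb stood at 154, 151 and 132 CPM in deficient CD8 and 177, 204 and 204 CPM in deficient CD4 libraries (edgeR adjusted p = 0.0237), without overlap. Cox6a2 was low in both, at 0.471, 0 and 0.633 CPM in deficient CD8 and 7.91, 2.85 and 1.98 CPM in deficient CD4 libraries. Of the mitochondrial members mt-Nd1 was called higher, at 594, 502 and 709 CPM in deficient CD8 and 352, 398 and 467 CPM in deficient CD4 libraries (0.57 ± 0.16, edgeR adjusted p = 0.0183), and with the number as a block 2 mitochondrial members were called. Leaving out single libraries left 0 to 3 nuclear members called: 0 without deficient CD8 replicate 3 or deficient CD4 replicate 2, 1 without deficient CD8 replicate 1 or 2 or deficient CD4 replicate 3, and 3 without deficient CD4 replicate 1. Without the 3 libraries with the most ribosomal counts the nuclear median was 0.00 and 1 was called. Macrophage markers summed to 2274 to 4059.9 CPM in deficient CD8 and 5378 to 7514 CPM in deficient CD4 libraries (8 of 20 lower and 1 higher in CD8). Here too the sums did not overlap, so cell type and macrophage RNA cannot be told apart.

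Floxed CD8 and floxed CD4 cells differed at 13 nuclear and 4 mitochondrial members, and 1 library carried much of it. The nuclear share, 16.9%, was below the 39.1% of all tested genes called in either direction. Of 77 nuclear members 3 were called higher in CD8 cells and 10 lower, beside 18.9% of all tested genes called higher and 20.2% called lower, and the median was -0.13, beside 0.04. Higher were Atp5j (0.46 ± 0.14), Atp5b (0.34 ± 0.11) and Ndufa10 (0.35 ± 0.13), an accessory subunit of complex I. Lower were the complex I genes Ndufs4 (-0.51 ± 0.15), Ndufb4, Ndufa6 and Ndufb9, the complex II anchors Sdhc (-0.45 ± 0.15) and Sdhd (-0.41 ± 0.15), the complex IV genes Cox6b1, Cox6a2 and Cox7a1, and Atp5mpl. Without floxed CD8 replicate 1 the counts were 4 higher and 1 lower, with a median of 0.02, and without the 3 libraries with the most ribosomal counts 5 higher and 0 lower. Sdhc, as an example, stood at 59.3, 85.2 and 85.7 CPM in floxed CD8 and 111, 86 and 118 CPM in floxed CD4 libraries, where the first CD8 value is the low one. Without floxed CD4 replicate 1 or 3 there were 5 nuclear calls in all, and without floxed CD8 replicate 2 there were 8. Muscle forms were close to absent: Cox6a2 had 0, 0 and 0 CPM in floxed CD8 and 0, 2.19 and 0.497 CPM in floxed CD4 libraries, so no fold is given.

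The mitochondrial members split between higher and lower in the same comparison. Higher in floxed CD8 than in floxed CD4 cells were mt-Nd4, at 197, 39 and 116 CPM in floxed CD8 and 56.9, 32.1 and 46.5 CPM in floxed CD4 libraries (1.38 ± 0.44, edgeR adjusted p = 0.024), and mt-Nd5 (1.38 ± 0.39, 0.0125). In both, floxed CD8 replicate 2 lay within the CD4 range. Lower were mt-Nd6, at 1.71, 5.96 and 1.78 CPM in floxed CD8 and 15.5, 8.22 and 8.69 CPM in floxed CD4 libraries (-1.70 ± 0.41, edgeR adjusted p = 0.00231), and mt-Co1 (-0.38 ± 0.14, 0.0392). Without floxed CD8 replicate 1, mt-Nd4 and mt-Nd5 had 0.78 and 0.79 (edgeR adjusted p = 0.16 and 0.0836) and 1 mitochondrial member was called. Without floxed CD8 replicate 2 there were 6 mitochondrial calls, and 2 without floxed CD4 replicate 2 or 3. Macrophage markers summed to 1308 to 2859 CPM in floxed CD8 and 15414 to 31239.7 CPM in floxed CD4 libraries (18 of 20 lower in CD8), and Cd8a reached 14.6, 149 and 142 CPM in floxed CD4 libraries. With the melanoma and macrophage sums as covariates no member was called. The macrophage sum did not overlap between these groups, so that fit cannot tell cell type and macrophage RNA apart.

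The wider mitochondrial machinery is given from lists of its own. Ppargc1a, a coactivator of mitochondrial biogenesis, was the 1 of 21 biogenesis regulators called on deletion in CD8 cells, at 6.47, 6.12 and 4.12 CPM in deficient and 0.427, 0.587 and 1.78 CPM in floxed libraries (2.63 ± 0.90, edgeR adjusted p = 0.0457). Tfam, which packs and transcribes mitochondrial DNA (-0.11 ± 0.14), and the mitochondrial RNA polymerase Polrmt (-0.04 ± 0.21) did not pass. Of all tested genes 9.65% rose in that comparison. On deletion in CD4 cells Ppargc1a had 1.198 ± 0.84, not called. With blockade it had -1.51 ± 0.84 in CD8 and -1.44 ± 0.83 in CD4 cells, not called in either. The median log2 fold change of the melanoma markers had the same sign as Ppargc1a in all of these comparisons. Their part in the Ppargc1a values was not tested. Of 17 tested genes that process or stabilise mitochondrial RNA, 1 rose on deletion in CD8 cells (Fastkd5, 0.93 ± 0.29) and 0 in CD4 cells. Lrpprc, which stabilises mitochondrial messages, hardly moved with deletion (-0.06 in CD8 and 0.17 in CD4 cells), but was higher in CD8 than in CD4 cells in all 3 states, at 147, 146 and 145 CPM in treated CD8 and 85.4, 87.2 and 84 CPM in treated CD4 libraries (0.77 ± 0.10, edgeR adjusted p = 2.57e-05). The same list had 7 of 17 higher in CD8 than in CD4 cells in the treated state and 5 in each of the others, with 0 lower.

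Genes for translation and import of mitochondrial proteins were called in different numbers in the 3 states. Of 77 tested genes of the mitochondrial ribosome, 15 were higher and 0 lower in treated CD8 than in treated CD4 cells (median 0.31), 2 were higher and 3 lower in deficient CD8 than in deficient CD4 cells, and 7 were higher and 1 lower in floxed CD8 than in floxed CD4 cells. The shares of all tested genes called in these comparisons are those given above. Of the same 77, 5 rose and 0 fell with blockade in CD8 cells, beside 8.25% of all tested genes higher and 5.53% lower. Among the 5 was Mrpl18 (0.57 ± 0.17). On deletion in CD8 cells 1 of the 77 rose and 3 fell, beside 9.65% and 9.61% of all tested genes. On deletion in CD4 cells 0 of the 77 moved, beside 11.7% of all tested genes. Mrpl12 was at 30.3, 28.9 and 37.6 CPM in treated CD8 and 12.8, 15.3 and 14 CPM in treated CD4 libraries (1.22 ± 0.21). Of 22 import factors and chaperones 12 were higher in CD8 than in CD4 cells in the treated state, 4 in the deficient and 6 in the floxed state, and 0 were lower in any of them. Hspd1, the matrix chaperonin, stood at 187, 181 and 219 CPM in treated CD8 and 94.6, 90.5 and 103 CPM in treated CD4 libraries (1.02 ± 0.17), and Hspa9, the motor of import, had 0.65 ± 0.14. Few assembly factors were called: with blockade in CD8 cells Tmem126a of complex I (0.53 ± 0.17) and Cox17, the copper carrier of complex IV (0.63 ± 0.20), rose, while of 14 tested factors of complexes II, III and V 0 did.

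Electron carriers and Krebs cycle genes had single members that moved with the CD8 groups. Etfb, which hands electrons from fatty acid oxidation to the chain, was at 22.2, 30.6 and 24.5 CPM in treated, 14.1, 13.8 and 11.6 CPM in deficient and 26.6, 23.6 and 23.5 CPM in floxed CD8 libraries (-0.90 ± 0.20 on deletion, edgeR adjusted p = 0.00398; 0.95 ± 0.21 with blockade, 0.00378). Idh2, the mitochondrial isocitrate dehydrogenase that makes NADPH, was at 24.9, 39.7 and 41.5 CPM in treated, 89.3, 87.3 and 83.1 CPM in deficient and 30.5, 29.9 and 63.4 CPM in floxed CD8 libraries (1.08 ± 0.25 on deletion and -1.31 ± 0.25 with blockade), and was the 1 of 18 Krebs cycle genes called in each. In CD4 cells 0 of the 18 were called in either comparison. Cytochrome c, from Cycs, was not called in any comparison. Of 12 tested genes of the integrated stress response that mitochondrial faults can set off, 4 rose and 0 fell on deletion in CD8 and 7 rose and 1 fell in CD4 cells. Of all tested genes 9.65% rose and 9.61% fell on deletion in CD8 cells, and 649 of 14080 rose and 994 fell in CD4 cells. Asns was at 82.9, 80.2 and 64.5 CPM in deficient and 28.9, 32.6 and 63.8 CPM in floxed CD8 libraries (0.87 ± 0.24), and at 89.6, 68.4 and 59.8 CPM in deficient and 18.8, 12.6 and 16.6 CPM in floxed CD4 libraries (2.19 ± 0.26). Melanoma markers rose in the same comparisons, as given above, and their part in these values was not tested gene by gene.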

How the data were processed

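Total RNA of sorted CD8+ and CD4+ T cells from tumors was extracted with miRneasy kits and sequenced, per the labels' protocols. The authors deposited raw counts per gene, made with featureCounts 1.5.1 in reverse-stranded mode on the Ensembl release 87 annotation of GRCm38, per the file headers, and the submitters' processing notes also name STAR and DESeq2. Symbols came from GENCODE M21, which held 49412 of the 49671 gene IDs. Groups were taken from the labels, with 3 libraries each. Each is a pool of tumors, and p-values measure the spread between these pools only.

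One edgeR 4.0.16 quasi-likelihood model (R 4.3.3, TMM scaling, filterByExpr, robust) was fitted to all 18 libraries, with 12 residual degrees of freedom, and tested 14080 genes. P-values were adjusted by Benjamini-Hochberg over all of them, and an adjusted p under 0.05 made a call. Values after ± beside a log2 fold change are standard errors from that fit. Alternatives used DESeq2 1.42.0, limma voom (limma 3.58.1), other filters and scalings, marker sums as covariates, a replicate block and leaving out each library. Same-numbered libraries were correlated above 0.1 in every pair between CD8 and CD4 cells in the deficient (0.213, 0.121 and 0.175) and treated groups (0.149, 0.107 and 0.324). The numbers were taken as a possible pairing of those samples. Same-numbered deficient and floxed CD8 libraries, from different mice, had 0.0163, 0.142 and 0.231, so such values do not settle a pairing. The possible pairing of CD8 and CD4 libraries comes from the data and not from the labels. The main fit did not use it, so its standard errors, p-values and calls for these comparisons ignore it. The number entered only in the alternative with a replicate block, which spanned all groups, the floxed ones included.

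Library depth of 3198435 to 11645432 counts puts a limit of 3 counts on a gene at 0, which covers counting error only. Members and lists were chosen with earlier results of these data known. All 13 mitochondrial genes, complex II, the core of complex I, restricted isoforms and up to 8 called nuclear members per direction are named, and of each other list at most 2 called genes with the smallest adjusted p, plus Ppargc1a, Tfam, Polrmt, Lrpprc and Cycs. The motif of 9 letters for NRF1 and the fit without the 3 libraries richest in ribosomal counts were chosen after seeing the data. Single values of some genes are not reported here.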

Additional observations from a re-analysis of the deposited data

Results flagged for a closer look

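The effect of miR-155 deletion on mt-Nd1 differed between the cell types by the test of the difference itself. As CD8 minus CD4 it was 0.70 ± 0.22 (log2, SE; edgeR adjusted p = 0.0465), with higher mt-Nd1 in 3 of 3 deficient CD8 libraries than in any floxed CD8 library. In CD4 cells the deficient and floxed libraries overlapped. The call was lost in 11 of 21 alternatives, and the direction was kept in all 21. In the same difference 15 of 20 macrophage and monocyte markers were called higher and 3 of 12 T cell markers lower. A change in the cells of a sort and one within T cells cannot be told apart here.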

How the results depend on the processing

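Of 46 results for single members, 2 kept their call and direction in all alternatives (Cox5a for blockade in CD8 cells and Atp5b for treated CD8 against treated CD4 cells) and 38 kept their direction. With the melanoma and macrophage sums as covariates the direction turned for Atp5mpl on deletion in CD8 cells (-0.026) and, in floxed CD8 against floxed CD4 cells, for Sdhc (0.37), Cox6b1 (0.17), Sdhd (0.66), Ndufs4 (0.38), Atp5mpl (0.34), Ndufb9 (0.11) and mt-Co1 (0.095). The cause was not tested. In both comparisons a marker sum used as covariate did not overlap between the groups, which limits what that fit can call.

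Counts of called members moved as follows. With covariates there were 0 nuclear and 0 mitochondrial calls on deletion in CD8 cells, 3 nuclear calls for blockade in CD8 cells, 0 nuclear and 0 mitochondrial calls for floxed CD8 against CD4 cells, 1 nuclear call for deficient CD8 against CD4 cells and 0 mitochondrial calls for the deletion difference. With no filter there were 1 nuclear and 5 mitochondrial calls on deletion in CD8 cells, 1 mitochondrial call on deletion in CD4 cells, 4 mitochondrial calls, all lower, for blockade in CD8 and 1 nuclear call for blockade in CD4 cells, 4 nuclear calls for floxed cells, 1 nuclear and 5 mitochondrial calls for deficient cells, 1 mitochondrial call for treated cells, 2 mitochondrial calls for the deletion difference and 1 for the blockade difference. A minimum of 10 CPM gave 3 nuclear calls for deficient cells. Limma voom gave 1 nuclear call on deletion in CD4 cells and 0 mitochondrial calls for the deletion difference. DESeq2 gave 2 nuclear calls on deletion in CD4 cells, 1 nuclear call for blockade in CD4 cells, 2 mitochondrial calls for deficient cells and 3 for the deletion difference. Without the 3 libraries richest in ribosomal counts there were 3 nuclear calls on deletion in CD8 cells, 5 nuclear and 1 mitochondrial for floxed cells, 1 nuclear for deficient cells and 0 mitochondrial for the deletion difference.

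Leaving out 1 library at a time gave ranges of 1 to 4 nuclear and 2 to 5 mitochondrial calls on deletion in CD8 cells, 0 to 2 and 0 on deletion in CD4 cells, 2 to 5 and 0 for blockade in CD8 cells, 0 and 0 for blockade in CD4 cells, 5 to 13 and 1 to 6 for floxed, 0 to 3 and 0 to 1 for deficient and 2 to 8 and 0 for treated CD8 against CD4 cells, 0 and 0 to 3 for the deletion difference and 0 and 0 for the blockade difference. With the replicate number as a block there were 8 nuclear calls for blockade in CD8 cells, 2 mitochondrial calls for deficient and 8 nuclear calls for treated CD8 against CD4 cells. Outside the possible pairing of deficient and of treated CD8 and CD4 libraries the samples share only a number. Other scalings kept every count of called members within 1.5 times. Among tested members the fewest counts over all libraries stood behind Cox6a2 (118), Cox7a1 (132), Atp5g2 (167) and Ndufs5 (496).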
